A study of Mus musculus with 4 samples.

Results

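eIF4A3 peaks on mouse chromosome 19 were set against exon models. eIF4A3 is a DEAD-box RNA helicase, mapped here by enhanced crosslinking and immunoprecipitation (eCLIP), a method that fixes proteins to the RNA they touch with ultraviolet light, recovers 1 protein with an antibody, and sequences its RNA next to input RNA that was not pulled down. The members are the rows of the deposited peak list whose chromosome is 19, which are 825 of 30763 peaks. The study looked for RNA helicases that regulate stem cell identity, and its eCLIP data are 4 libraries of J1, an embryonic stem cell line from mouse strain 129S4/SvJae. There were 2 input libraries, made with no antibody, and 2 pull-down libraries, made with an antibody to eIF4A3. Both groups came from untreated, feeder-free cells of the same single line, grown in serum with leukemia inhibitory factor and crosslinked before collection, and the labels call the replicates biological. The list gives 1 fold change and 1 p-value per peak and no value per library. No spread between replicates can be given for any peak, read depth is unknown, and no comparison between libraries was tested. Stem cell identity cannot be checked in a list of peaks without expression values.

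eIF4A3 is the subunit by which the exon junction complex grips RNA. Splicing deposits this complex on the upstream exon, a short and nearly fixed distance before each exon junction, commonly given as about 24 nt, where it stays until the messenger RNA is first translated. The complex is known for its parts in export, localization and translation of messenger RNA and in nonsense-mediated decay. An unspliced transcript and the last exon of a spliced one have no junction downstream on which the complex would be placed by splicing.

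The peaks are on the mouse build mm9 and the exon models, GENCODE M21, are on GRCm38, so the shift between the builds was first read from the data. Every constant shift up to 200000 nt was scored by how many peak starts fell on an exon start and how many peak ends on an exon end of the same strand. A shift of 0 gave 39 coincidences and a shift of 74490 nt (mm9 minus GRCm38) gave 151. The highest count at any shift more than 1000 nt from both was 8. At the shift of 74490 nt, 82 starts fell exactly on an exon start, against 7 when displaced by 1 nt in one direction and 36 in the other, and 69 ends fell exactly on an exon end, against 43 and 13. At the shift of 0 the exact position was less sharp: 15 starts fell on an exon start and 19 lay 1 nt inside the exon, while 24 ends fell on an exon end and 19 lay 1 nt inside. All chromosome 19 peaks had a part in finding both shifts. Each peak then took the shift on which the nearest peaks of other genes, on both sides, agreed, so no gene's peaks chose between the shifts for themselves. This placed 203 peaks at a shift of 0, between positions 3349190 and 6335185, and 561 at a shift of 74490 nt, between positions 7053641 and 56645355. The other 61 peaks, in 13 clusters (peaks within 10 kb on a strand), stayed without a certain shift and enter none of the exon results. Of these, 42 peaks in 9 clusters were all exonic at the shift their own peaks favoured, in Grk2, Ankrd13d, Rce1, Rbm4, Map4k2, Plcb3, Ablim1, Trub1 and Atrnl1. The last 14 peaks of the chromosome fell in exons at a shift of 75904 nt chosen by these peaks themselves, 13 in Eif3a, a translation initiation factor subunit, and 1 in Grk5, with only 3 edge coincidences. All positions printed here are mm9 positions of the list unless a sequence is given.

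Printed exon ends show what a peak near a junction looks like. They are the 5 peaks of highest fold change, 1 per gene, among coding peaks in internal exons of the first stretch that passed the threshold described below, were at least 20 nt wide and covered the base 24 nt before the junction. The peak also had to lie wholly inside its exon and within the stretch printed, which is the last 80 nt of the exon, or the whole exon if shorter, and that stretch had to be coding throughout. Each line ends with the last base of the exon, runs 5′ to 3′ on the gene's strand, and has the peak in capitals. In this stretch mm9 and GRCm38 positions are equal. The sequences are the reference of the GENCODE M21 transcripts on GRCm38, not reads of the 129 strain.
Ltbp3 exon 27 (plus strand, chr19:5757763-5757842): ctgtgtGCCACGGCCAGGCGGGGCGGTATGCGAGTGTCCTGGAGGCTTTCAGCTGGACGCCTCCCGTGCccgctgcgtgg
Sart1 exon 6 (minus strand, chr19:5384370-5384447): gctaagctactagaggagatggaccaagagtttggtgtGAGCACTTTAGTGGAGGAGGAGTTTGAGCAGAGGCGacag
Cdc42bpg exon 23 (plus strand, chr19:6316519-6316578): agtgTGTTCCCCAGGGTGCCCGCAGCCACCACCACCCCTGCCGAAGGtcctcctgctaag
Tcirg1 exon 13 (minus strand, chr19:3898548-3898627): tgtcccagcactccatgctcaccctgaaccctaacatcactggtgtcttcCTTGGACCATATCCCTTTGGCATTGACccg
Syvn1 exon 2 (plus strand, chr19:6047986-6048065): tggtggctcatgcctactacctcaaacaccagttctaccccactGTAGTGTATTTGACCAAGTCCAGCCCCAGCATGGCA
The Ltbp3 peak, in the gene of a binding protein of latent growth factors, had a fold change of 32.3 and stopped 11 nt short of the last exon base. The Sart1 peak, in the gene of a spliceosomal protein, had a fold change of 14.3 and stopped 4 nt short. In Cdc42bpg, which encodes a kinase bound by Cdc42, the peak had a fold change of 13.7 and stopped 13 nt short. The Tcirg1 peak lay in the gene of a proton pump subunit, had a fold change of 11.4 and stopped 3 nt short. Syvn1 encodes a ubiquitin ligase of the endoplasmic reticulum, and its peak, with a fold change of 10.7, ran to the last base of the exon. The 5 peaks were 27 to 63 nt wide and share the covered base by the way they were chosen.

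The fold changes of the chromosome 19 peaks were close to those elsewhere. All fold changes and p-values are the authors' own, 1 per peak. The median fold change was 6.48 on chromosome 19 and 6.58 on the other chromosomes, and the median width was 30 nt and 32 nt. Of the 825 peaks, 258 (31.3%) had a fold change of at least 8 with p at most 0.001, against 32.3% of the whole list. At 16-fold with p at most 1e-05 there were 28 (3.39%), against 3.65% of the whole list. The range on chromosome 19 ran from 4.01-fold to 45.4-fold. Of the peaks on chromosome 19, 44.5% were on the plus strand, against 53.2% elsewhere. The stretch at a shift of 0 had a median fold change of 6.96 and the stretch at 74490 nt one of 6.28, with 37.4% and 28.0% of peaks past the threshold.

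Nearly all placed peaks lay in exons, and on the strand of the gene. Of 764 peaks with a certain shift, 751 (98.3%, 95% Wilson interval 97.1 to 99.0) overlapped an exon of the same strand by at least 1 nt. The same positions overlapped an exon of the opposite strand for 15 peaks (1.96%), and at the shift of the other stretch 46 peaks (6.02%) overlapped an exon of the same strand. The intervals here cover counting error only, and peaks of 1 gene are not independent. The 13 peaks outside exons all lay in introns of a gene on the same strand. Of these, 4 lay next to each other in Kdm2a, which encodes a histone demethylase, with fold changes of 4.03, 5.13, 5.45 and 12.4. One in an intron of Borcs7 (chr19:46774716-46774790), which encodes a subunit of a lysosome-positioning complex, had a fold change of 23.2, and the other intronic peaks were between 4.01-fold and 6.77-fold. A further 26 exonic peaks lay only in exons of transcripts other than the 1 chosen to represent the gene, and 4 overlapped exons of more than 1 gene.

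Last exons were nearly empty. In the spliced transcripts that represent the genes hit, 105 peaks were in first exons, 609 in internal exons and 9 in last exons. Last exons held 1.24% of these peaks and 39.1% of the exon bases, while internal exons held 84.2% of peaks and 53.7% of bases and first exons 14.5% of peaks and 7.13% of bases. By region, 655 peaks (90.7%) had their midpoint in coding sequence, 65 in the 5′UTR and 2 (0.277%) in the 3′UTR, while the 3 regions held 59.4%, 5.56% and 35.1% of bases. Both 3′UTR peaks were in Chka, which encodes choline kinase alpha, at 6.68-fold and 8.52-fold. The 7 other last-exon peaks had midpoints within 22 nt of the exon's first base. They lay in Eef1g, Myrf, Psat1, Mms19, Mgea5 and, with 2 peaks, Nolc1, and were 4.51-fold to 7.23-fold. In Mms19 the last exon is 3495 nt long, and its only peak, 4.67-fold, was centred 22 nt from its start. Gene expression, transcript end usage and read coverage of the 3′UTRs were not measured in the list, so their part in this was not tested.

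**Figure D1:**
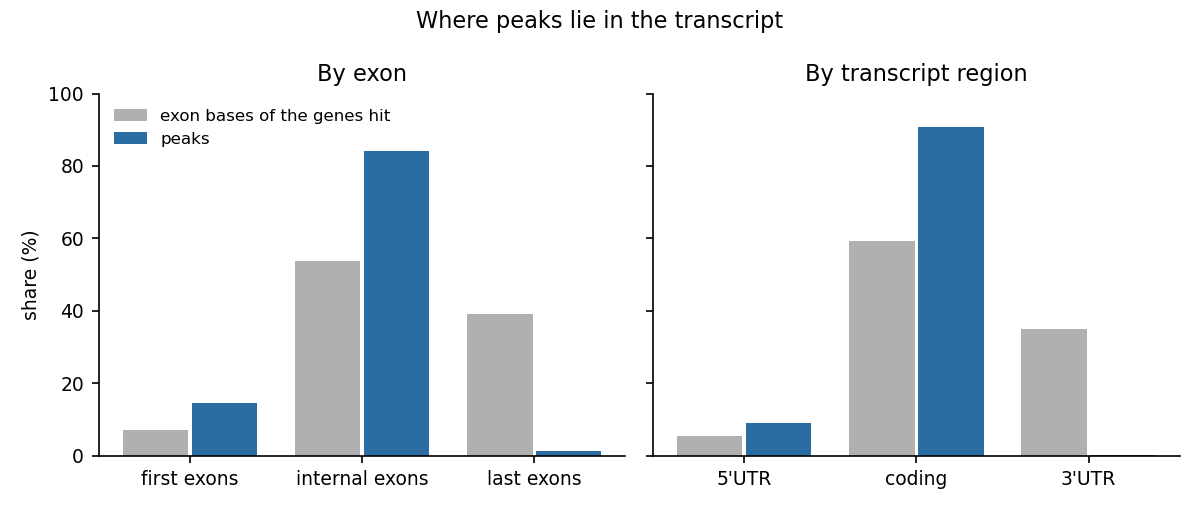
Share (%) of peaks (blue) and of exon bases (grey) in first, internal and last exons (left) and in 5′UTR, coding sequence and 3′UTR (right), over the spliced representative transcripts of the genes hit. Last exons hold 39.1% of bases and 1.24% of peaks, and 3′UTRs 35.1% of bases and 0.277% of peaks.

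No peak was assigned to a gene annotated only with unspliced transcripts. Of the genes annotated on chromosome 19, 426 have 1 exon in every transcript, 33 of them coding, and 0 of these were assigned a peak. The 4 peaks that overlap exons of more than 1 gene were each given to 1 gene, so overlap with such a gene is not excluded for them. With 0 of 751 exonic peaks, the count allows a share of up to 0.399%. Most of these genes are noncoding entries, and their expression is not in the list. Its part in the count was not tested. Malat1 and Neat1, the abundant nuclear long noncoding RNAs, lie side by side in the stretch at a shift of 0. Both also have annotated spliced transcripts, with up to 2 exons in Malat1 and up to 4 in Neat1. Malat1, at 5795690 to 5802672, had no peak. Neat1, whose longest transcript is a single exon of 20771 nt, had 2 peaks of 4.22-fold and 4.44-fold, near the low end of the list. These were centred 2482 nt and 1386 nt from the start of that transcript. Ahnak, which encodes a very large scaffold protein, has an exon of 17498 nt that held no peak, and its single peak (4.10-fold) was in its first exon, 108.5 nt before the junction.

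Within exons that precede a junction, midpoints were in excess near the junction, with a second pile-up at the exon start. Of 714 peaks in such exons, 391 (54.8%, Wilson interval 51.1 to 58.4) had their midpoint in the last 50 nt, where midpoints placed evenly along the same exons would give 42.6%. Short exons leave little room: in exons under 100 nt the share was 71.3% against 68.7% for even placement. In exons of at least 100 nt it was 47.3% against 30.7%, and in those of at least 200 nt 33.1% against 15.7%. First exons gave 48.6% against 23.1% and internal exons 55.8% against 45.9%. The share depends on the point of the peak that is measured: by the 3′ end it was 62.6% over all these exons, and by the 5′ end 33.1%. The 42.6% of even placement is for a point without width. Peak width alone puts 3′ ends nearer to the junction and 5′ ends farther from it, so neither share is read against the 42.6%. The median midpoint was 44.25 nt before the junction, and in exons of at least 100 nt the most filled 10-nt bin counted from the junction was 20 to 29 nt before the last base, with 76 midpoints, against 33 at 0 to 9 nt and 30 at 40 to 49 nt. Counted from the exon's first base, the bin of 0 to 9 nt held as many, 77 midpoints, against 32 at 10 to 19 nt and 20 at 20 to 29 nt. A wide peak inside an exon cannot have its midpoint next to the edge, so only narrow peaks can fill the bins nearest an edge. Peaks with a midpoint in the last 50 nt had a median fold change of 6.77 and those farther away one of 6.20.

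Base by base, the highest coverage lay where the exon junction complex is usually placed. Among 1296 exons of at least 100 nt before a junction in the genes hit, 13.8% were covered by a peak at 21 nt upstream and 13.7% at 24 nt, against 4.63% at 100 nt and 4.17% at the last base. Peaks held inside an exon cover its edge bases least wherever they lie. No even placement of peaks of the same widths was made, so how much of the fall to the last base comes from this is unknown. The top was flat: the highest base was 21 to 27 nt upstream on the plus strand, 17 to 28 nt on the minus strand, 26 nt in the stretch at a shift of 0 and 21 nt in the other. Without Mms19, the gene with the most peaks, it was 21 to 27 nt. At the same distance from the end of last exons, 0 of 117 were covered. Last exons held only 9 peaks in all, so this count adds nothing to their near emptiness given above. Downstream of junctions there was a second, lower maximum close to the junction: coverage was 5.32% at the first base, 8.43% at 5 nt, 3.34% at 50 nt and 6.31% at 100 nt.

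**Figure D2:**
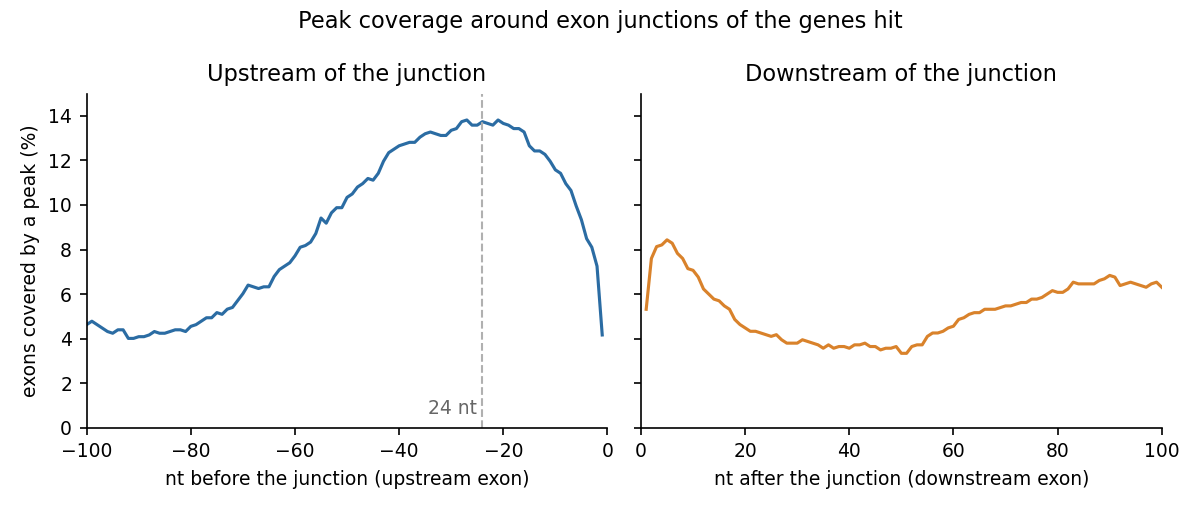
Share of exons of at least 100 nt that are covered by a peak (%), at each nt before the junction in the upstream exon (left) and after it in the downstream exon (right), in the genes hit. Coverage is 13.8% at its highest, 21 nt before the junction, and 4.63% at 100 nt, and the dashed line marks 24 nt. On the downstream side it reaches 8.43% at 5 nt.

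Peaks often stopped at an exon edge. Of the exonic peaks, 178 (23.7%) had a start or end exactly on an exon edge. Exact edges were also what chose the shifts, so this share is a description and supports nothing about them. In exons before a junction, 72 of 714 peaks (10.1%) ended on the last base, and in internal exons 98 of 609 (16.1%) began on the first base. Peaks that began on the first base of a later exon were narrow, with a median width of 17 nt, while those ending on the last base before a junction had one of 33 nt. The list gives 1 start and 1 end per peak, so a stretch of RNA across a junction can appear only as separate peaks. Of 103 peaks on the first base of a later exon, 79 (76.7%) had a peak in the exon before that ended within 5 nt of its end, against 168 of 515 (32.6%) other peaks in later exons. These 79 pairs lay in 42 genes and spanned a median of 51 nt of spliced RNA, 46 of them with no gap. In 58 of the pairs the fold changes of both peaks were within 1.5 times of each other.

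A pair of examples is printed because their peaks meet exactly at the junction. They have the highest fold changes, by the lower of the 2 peaks, among pairs with no gap in the stretch at a shift of 0 whose 2 exons are coding throughout and reach at least 10 nt beyond the peaks. Pairs in Syvn1, Cdca5 and Sf3b2 with higher values than the Kdm2a pair were left out because 1 of their exons is partly 5′UTR. Both are given as the spliced reference transcript, 5′ to 3′, with both peaks in capitals.
Atg2a exons 4 and 5 (plus strand, the first 56 nt are exon 4): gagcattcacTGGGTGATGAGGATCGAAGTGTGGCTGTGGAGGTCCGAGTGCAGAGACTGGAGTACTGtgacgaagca
Kdm2a exons 8 and 9 (minus strand, the first 12 nt are exon 8): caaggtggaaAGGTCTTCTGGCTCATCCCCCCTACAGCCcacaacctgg
In Atg2a, which encodes a lipid transfer protein of autophagosome formation, the upstream peak (chr19:6245103-6245148) was 46 nt wide and 10.5-fold, and the downstream peak (chr19:6245459-6245470) was 12 nt wide and 19.7-fold. In Kdm2a the upstream peak (chr19:4351737-4351738) was 2 nt wide and 8.52-fold, and the downstream peak (chr19:4350304-4350330) was 27 nt wide and 11.5-fold. The Kdm2a exon 8 peak adjoined another of 37 nt and 7.56-fold farther from the junction.

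Most junctions of the genes hit carried no peak, and those that did lay mostly near the 5′ end. Of 1967 exons before a junction, 482 (24.5%) had a peak. In the 97 genes with at least 9 such exons, these exons were divided by order into 3 parts: 260 of 644 (40.4%) in the 5′ part had a peak, 117 of 609 (19.2%) in the middle part and 76 of 579 (13.1%) in the 3′ part. In 75 of these genes more exons were hit in the 5′ than in the 3′ part, in 9 fewer, and in 13 as many. Exons with a peak were about as long as those without, with medians of 123.5 nt and 120 nt, and the introns after them had medians of 840.5 nt and 996 nt. Read coverage along the transcripts was not available, and its part in this was not tested.

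Genes with many exons were hit more often. Peaks fell in 120 genes, 118 of them among the 719 coding genes annotated on the chromosome (16.4%). Of coding genes with 1 exon, 0 of 39 had a peak, of those with 2 to 5 exons 2.30%, with 6 to 10 exons 10.4%, with 11 to 20 exons 32.7% and with 21 or more 46.8%. Coding genes hit had a median of 16 exons and the others one of 7. The denominators include genes that may not be expressed in these cells, and genes of the clusters without a certain shift count as not hit, so the part of expression and transcript length was not tested. Peaks were unevenly shared: 35 genes had 1 peak, and 26 genes with at least 10 held 441 peaks (58.7%). Besides Neat1, the other noncoding entry with a peak was Tmem134, annotated as a processed transcript.

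**Figure D3:**
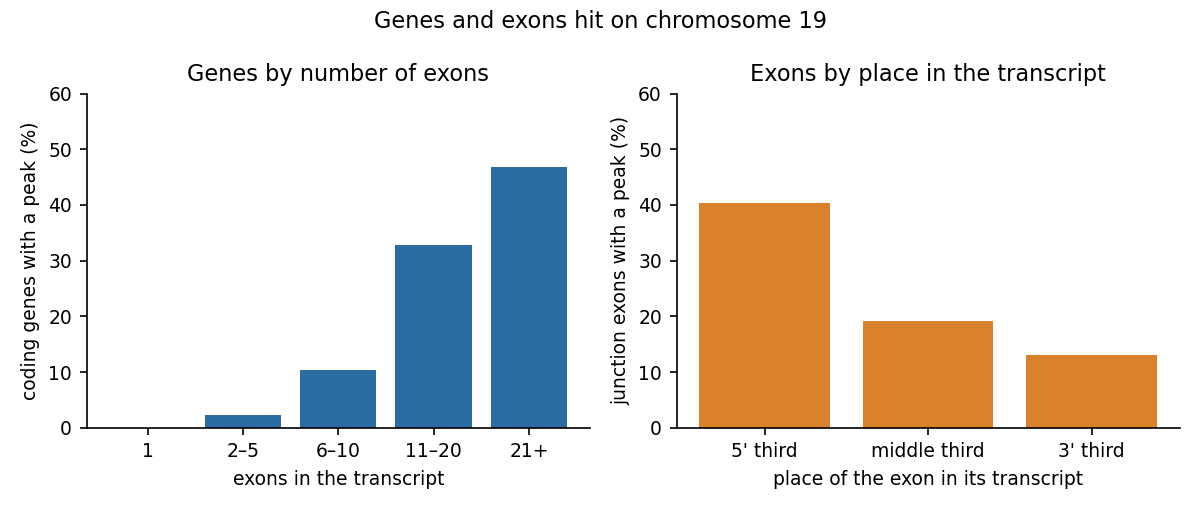
Left, share of the coding genes on chromosome 19 with a peak (%), by number of exons in the representative transcript, from 0 at 1 exon to 46.8% at 21 or more. Right, share of exons before a junction with a peak (%) in the 5′, middle and 3′ parts of the transcript, which falls from 40.4% to 13.1%.

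Mms19 carried the most peaks. It encodes a protein that delivers iron-sulfur clusters to enzymes of DNA replication and repair, and lies on the minus strand with peaks between 42019026 and 42055623. It had 55 exonic peaks, of which 19 passed the threshold, with a median fold change of 6.39 and a range of 4.25 to 34.6. Of its 30 exons before a junction, 26 had a peak, and in 22 the base 24 nt upstream was covered. Exons 1 to 24 each had at least 1 peak, exons 25 to 28 had none, and exons 29, 30 and 31 had peaks of at most 5.04-fold. The highest values were in exons 8 (17.1-fold), 13 (17.3-fold), 14 (34.6-fold) and 17 (16.9-fold). The 34.6-fold peak was 15 nt wide and centred 71 nt before the next junction, on the first bases of exon 14. In the spliced transcript it adjoined the 17.3-fold peak on the last bases of exon 13, and together they spanned 30 nt.

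The next 3 genes differed in where their peaks lay. Atg2a had 29 peaks in 19 of its 39 exons before a junction, at 4.10-fold to 45.4-fold, and none of them in exons 1 to 3. Its 45.4-fold peak, the highest on the chromosome, was 4 nt wide and ended 2 nt from the end of exon 14. Cdc42bpg had 28 peaks in 18 of 36 such exons, with 15 past the threshold and a range of 5.13-fold to 14.9-fold. Ldb1, which encodes an adaptor of LIM-domain transcription factors, has 11 exons and had 27 peaks, with peaks in 7 of its 10 exons before a junction. In all 7 the base 24 nt upstream was covered. Its exon 6 peak (chr19:46109919-46109957) was 11.9-fold with a −log10 p of 58.9, the highest listed on the chromosome. Ranks by p are uncertain, since some peaks share exactly 1 value, for a reason not stated. The 34.6-fold peak of Mms19, a 33.3-fold peak of Cpsf7 and a 29.2-fold peak of Armh3 all have 15.6576.

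**Figure D4:**
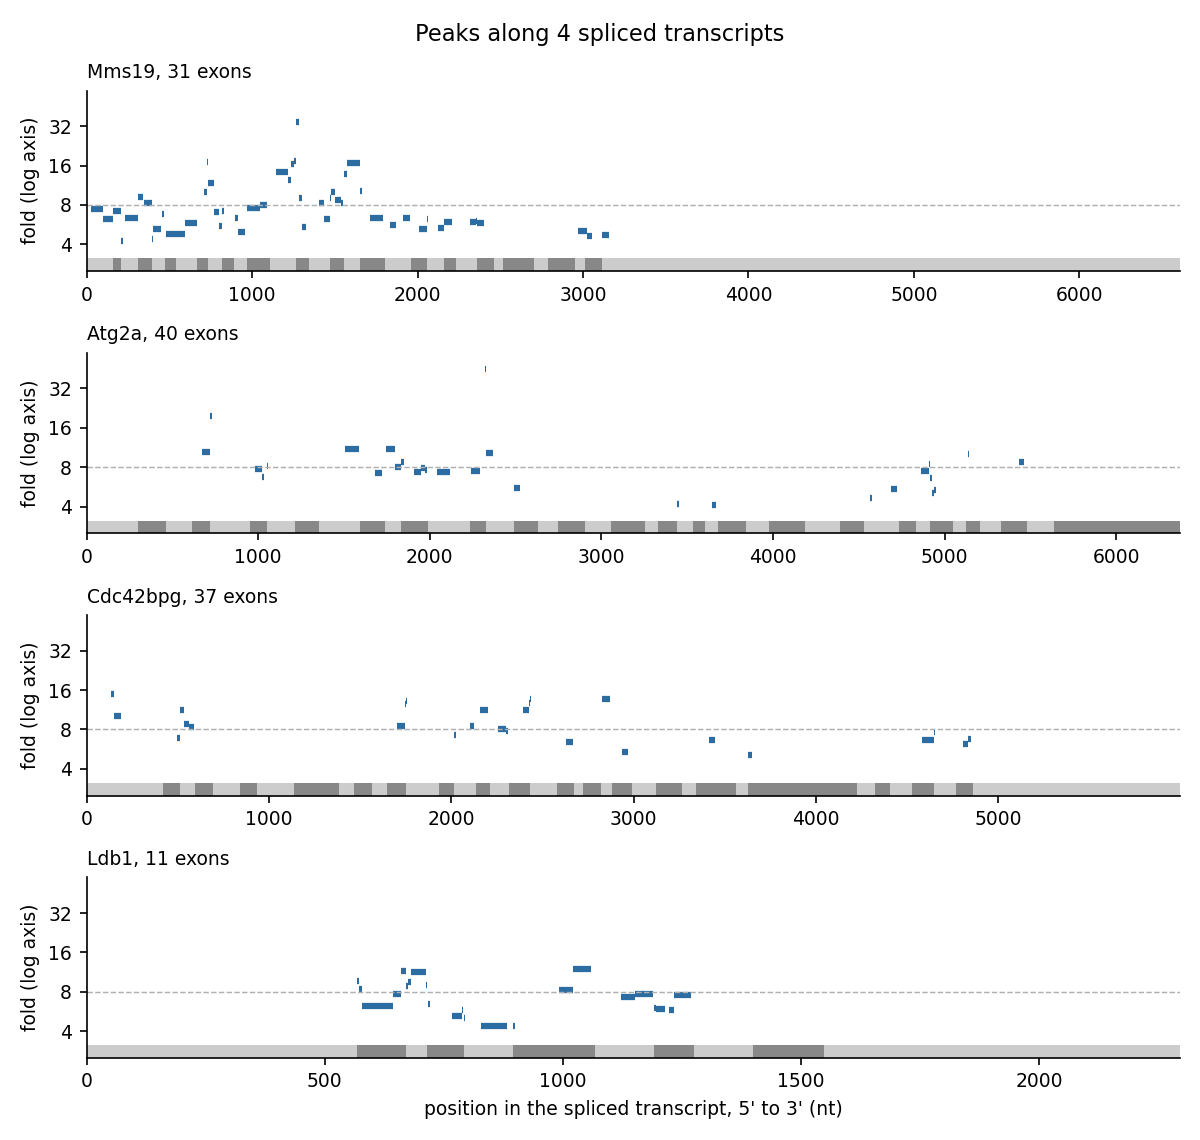
Peaks (blue bars, true width) at their fold change (log axis) along the spliced representative transcripts of Mms19, Atg2a, Cdc42bpg and Ldb1, with exons as alternating grey blocks, position in nt and the dashed line at 8-fold. In Mms19 the last exon, the long block at the right, holds 1 peak, and in the other 3 the last exon holds none.

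The next 7 genes by number of peaks had 15 to 20. Ganab, which encodes the catalytic subunit of a glycoprotein-trimming glucosidase, had 20, at 4.87-fold to 14.1-fold, with a median midpoint 23.5 nt before the junction. Kif20b, a kinesin of cell division, had 16 with a median of 8.73-fold, the highest median of these 11 genes. Sart1 had 16 with a median of 7.01-fold. Incenp, the scaffold of the chromosomal passenger complex, also had 16, with a median of 4.99-fold. Pprc1, a coactivator of transcription, had 17 peaks with a median of 5.04-fold, and Pcnx3 had 15 with a median of 5.32-fold. None of the peaks of Pprc1 or Pcnx3 reached 8-fold. Btaf1, which removes the TATA-binding protein from DNA, had 15 with a median of 5.55-fold.

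**Figure D5:**
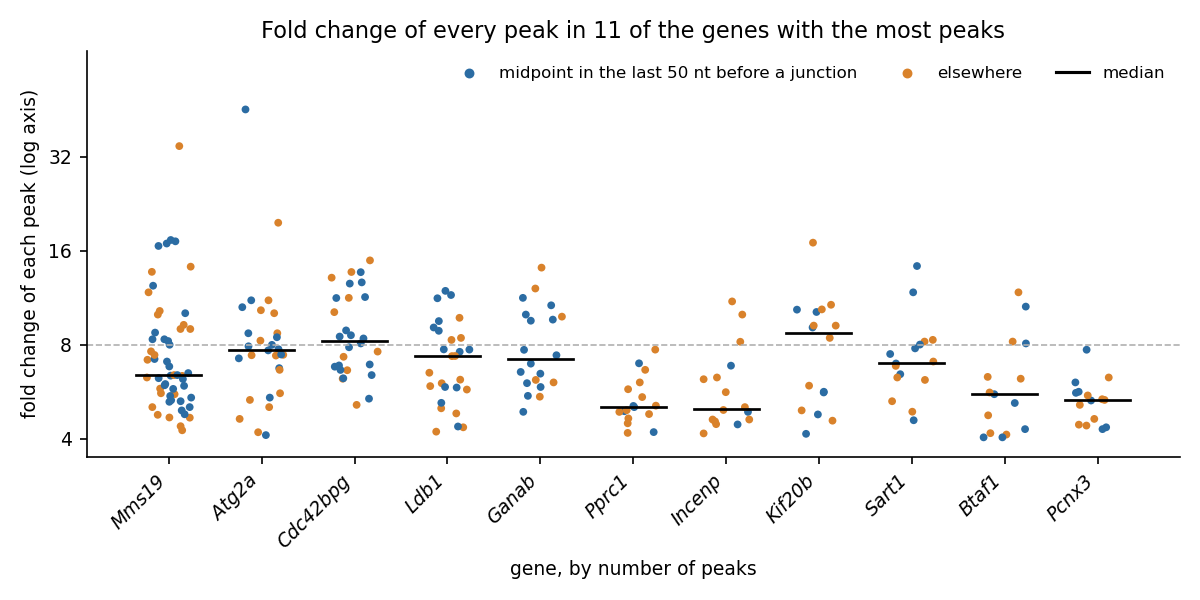
Fold change (log axis) of every exonic peak in 11 of the genes with the most peaks, with the median of each gene as a black line, blue where the midpoint lies in the last 50 nt before a junction and orange elsewhere. Medians run from 4.99 in Incenp to 8.73 in Kif20b, and no peak of Pprc1 or Pcnx3 reaches the dashed line at 8-fold.

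Of the 10 peaks with the highest fold change, 8 had a certain shift, and all 8 were in first or internal exons. Of all peaks in the spliced representative transcripts only 1.24% were in last exons, so this count is nothing particular to the 8. After Atg2a came Myrf, which encodes a membrane-bound transcription factor, with 39.3-fold in exon 16, Mms19 with 34.6-fold, and Cpsf7, a factor of messenger RNA 3′ end processing, with 33.3-fold in exon 1. Ltbp3 followed with 32.3-fold in exon 27 and Armh3 with 29.2-fold in exon 1. Tcirg1 had 2 peaks of 25.2-fold, in exons 2 and 19. A peak in exon 6 of Btrc has the same value but is not among the 10, so the cut runs through a tie. Several of the 10 peaks were very narrow: the Atg2a peak was 4 nt wide, the Myrf peak 3 nt, and those of Tcirg1 7 nt and 8 nt. The 2 without a certain shift, at 28.2-fold and 27.2-fold, lay in clusters whose own peaks favour Map4k2 and Ablim1.

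By function, genes of splicing and export were among those hit. Of 12 genes on the chromosome picked by hand for this list, 6 had a peak, against 118 of all 719 coding genes there (16.4%). The list is not complete: the spliceosomal gene Sart1, with 16 peaks, is not in it. This list and those below were picked by hand with earlier results of these data known, so such counts are descriptions only. The 6 genes had 42 peaks in all, of which 20 (47.6%) passed the threshold against 32.3% of the whole list. Sf3b2, a subunit of the U2 snRNP, had 13 peaks, the highest at 12.3-fold. Nxf1, the main export receptor of messenger RNA, had 12 peaks in 7 of 20 exons before a junction, at 5.62-fold to 17.8-fold. Hnrnpul2, an RNA-binding protein, had 7 peaks, Cpsf7 had 6, Cwf19l1 had 3 and Prpf19, a core splicing ubiquitin ligase, had 1. Rbm4b, Rbm14, Polr2g and Fau, which is also in the list of ribosome making and translation, had none. Rbm4 had only 1, in a cluster without a certain shift. Whether Sf1 had any depends on the shift: a cluster of 4 peaks (chr19:6372100-6374596, 4.14-fold to 4.63-fold) lay in exons of Sf1 at a shift of 0 and in exons of Ehd1, a gene of the cytoskeleton list, at 74490 nt.

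Of the 12 genes on the chromosome in the list of ribosome making and translation, 4 had peaks, against 16.4% of all coding genes there. Pdcd11 and Rrp12, both needed for making ribosomal RNA or subunits, had 14 and 6, Eef1g, a subunit of the translation elongation factor, had 13 and Nolc1, a nucleolar protein, had 5. Of their 38 peaks, 23.7% passed the threshold, against 32.3% of the whole list. In Eef1g the 4 peaks of exon 3 were, from its start to its end, 4.99-fold, 7.96-fold, 10.7-fold and 10.3-fold, and the first peak of exon 4 was 8.23-fold. The remaining peaks of Eef1g were between 4.15-fold and 4.82-fold. Besides Eif3a, whose cluster had no certain shift, 7 genes of this list had no peak.

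Of the 10 genes on the chromosome in the list of DNA replication and repair, 7 had peaks, against 16.4% of all coding genes there. They had 105 peaks in all, 55 of them in Mms19, and 29.5% passed the threshold, against 32.3% of the whole list. Ddb1, a subunit of ubiquitin ligases that act on damaged DNA, had 14 peaks in 10 of 26 exons before a junction. Smc5 and Smc3, both chromosome structure proteins, had 12 and 7. Cdca5, which protects cohesin, had 8 peaks in 4 of its 5 exons before a junction, Pola2, a subunit of DNA polymerase alpha, had 6, and Hells, a chromatin remodeler, had 3. The Hells peaks included 1 of 6.26-fold with a −log10 p of 53.8 in its first exon. Fen1, Mus81 and Dntt had none.

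The other lists had fewer peaks per gene hit or fewer genes. In the cytoskeleton and mitosis list 5 of 8 genes had 29 peaks, led by Kif20b with 16 and the mitotic kinesin Kif11 with 7, and 62.1% passed the threshold, against 32.3% of the whole list. Ahnak and Add3 had 1 each. In the membrane transport and scaffold list 6 of 7 genes had 38 peaks, of which 13.2% passed, against the same 32.3%. Btaf1 held 15 of these and 4 of the 5 past the threshold, though its action on the TATA-binding protein is not membrane transport. Lrp5, a Wnt co-receptor, had 3, Slc3a2 and Vps13a had 2 each and Gbf1 had 1. In the signalling list 4 of 10 genes had 15 peaks, of which 53.3% passed, against the same 32.3%. Of these, 7 were in the kinase gene Chuk, 6 in the ubiquitin ligase gene Btrc and 1 each in Tcf7l2 and Men1. Jak2, Nfkb2, Sufu, Gnaq and Shoc2 had none. The lipid synthesis list had 4 peaks in 3 of 8 genes, 2 in Gpam and 1 each in the desaturase genes Fads1 and Fads2, with none past the threshold and none in Scd1 or Scd2. Beside these counts of genes, 16.4% of all coding genes on the chromosome had a peak. The lists differ in gene length, exon number and expression, and what is particular to any of them was not tested.

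Base composition differed slightly between peak bases and other bases of the same exons. In 127 exons of the stretch at a shift of 0, GC content was 62.3% over 5229 peak bases and 58.5% over the 16772 other bases. Both values pool the bases of all these exons, so differences between exons enter them. The shares of peaks with 3 purine-rich motifs were counted on the strand of the RNA only. The longest, GAAGAA, was in 6 of 163 peaks long enough to hold it (3.68%), against 2.38% of windows of the same lengths in the same exons. GGAGA was in 8.38% of peaks against 8.05% of windows. GAAG, which also lies inside the longest of these motifs, was in 18.8% of peaks against 17.9%. These shares were not tested, and the exons near a junction differ in composition along their length in ways not examined here.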

How the data were processed

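The series holds 4 eCLIP libraries of J1 mouse embryonic stem cells, 2 input and 2 pull-down, grouped by their titles. Per the submitters' processing notes, cutadapt 1.18, STAR 2.6.1b and the build mm9 were used, and the roles of the tools are not stated. The caller, the terms of the fold change and the pooling of replicates are not stated in these notes or labels. The deposited list gives each peak's log2 fold change by the authors, printed here as a fold. Its −log10 p-value is also the authors' deposited value.

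Positions were read as counting from 1 with both ends in the peak. Edge coincidences were highest there at the shift of 74490 nt; at the shift of 0 the starts did not settle it, and positions may be off by 1 nt. Exon models came from GENCODE M21 (GRCm38). A candidate shift needed 20 coincidences within 200000 nt. A cluster took the shift at which at least 50% of the nearest 5 or more peaks of other genes, on each side, were exonic, and more than at the other shift. At the start of the chromosome 1 side was enough. A peak went to the gene with the widest exon overlap. Each gene was represented by 1 transcript: coding, tagged basic, best APPRIS rank, best support level, then the longest.

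Sequences were read by exon from the transcript file. The functions were tested on simulated peaks with known shifts and positions. Named genes are the 12 with the most peaks, those of the 10 highest fold changes, Malat1, Neat1 and list members with a peak. Some of these are not reported here. Other genes named were chosen after their values were seen. Members, lists and rules were chosen with earlier results of these data known. The 50% share, the motifs, the 3 parts of transcripts and the last-exon result were chosen after seeing the data. No test was run, since the list has no values per library. Python 3.11.15, numpy 2.4.6 and pandas 2.3.3 were used.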

Additional observations from a re-analysis of the deposited data

How the results depend on the processing

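Of 34 alternatives over 8 results, 19 stayed within 1 counting interval, or 1.5 times for counts, and 15 moved. Chromosome 19 peaks past the threshold fell from 258 to 28 at 16-fold with p at most 1e-05. The exonic share of 98.3% was 96.6% in the stretch at a shift of 0, 94.0% for whole peaks inside an exon and 99.1% for peaks past the threshold. The share within 50 nt of a junction, 54.8%, was 33.1% by the peak's 5′ end, 62.6% by its 3′ end, 58.7% for peaks past the threshold, and 47.3% in exons of at least 100 nt. With a window of 30 nt it was 32.6% against 25.7% for even placement. The 42.6% of even placement is for a point without width, and peak width alone sets 5′ and 3′ ends apart. The shares by 5′ and 3′ ends therefore neither show nor deny an excess near junctions. The share on an exon edge, 23.7%, was 40.7% within 1 nt, 51.1% within 3 nt and 17.3% in the stretch at a shift of 0. Genes hit fell from 120 to 69 with a peak past the threshold and to 28 in the stretch at a shift of 0, since each setting uses fewer peaks. The last-exon share, 1.24%, was 0.446% for peaks past the threshold. The second shift, 74490 nt, was found again with coding transcripts only, and the count of 0 peaks in unspliced genes held in its 3 alternatives. Added after seeing the data were 13 of the alternatives: own-peak placement, 80% of neighbours, 1 peak per exon, leaving out Mms19, exons of at least 100 nt, a longest-coding-sequence transcript and all those for last exons. No paired analysis was possible because the list has no values per replicate, and no replicate could be left out for the same reason.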
